A study of Rattus norvegicus with 15 samples.

Results

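Rat sciatic nerve was profiled for 350 microRNAs (miRNAs), and the data described here are those of rno-miR-132 and rno-miR-212, 2 of the 350, chosen by name as the pair known to be induced by the transcription factor CREB. Both were among the 231 miRNAs tested, and no other arm of either hairpin was read by the array. The groups were injured nerve of adult male rats on days 1, 4, 7 and 14 and uninjured nerve (day 0, labelled 0h), with 3 arrays each and 15 in all. The labels disagree on the injury: a resection with proximal tissue in the series text, a crush with the damaged section in the protocol, and both proximal stump and injury site among the sample fields. Strain, the number of animals behind an array and any pooling are not given in the sources used here, so a p-value here reflects only how much the arrays of a group differ, which may be technical. A piece of nerve holds Schwann cells, axons, fibroblasts, vessels and, after injury, immune cells; in such bulk tissue a change in the number of cells of a type and a change in RNA per cell cannot be told apart.

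miR-132 and miR-212 are made from neighbouring hairpins and are usually described as a single cluster. In rat neurons their transcription is switched on by CREB, which binds the cAMP response element (CRE) after neurotrophin or activity signals, and miR-132 represses p250GAP, a brake on neurite outgrowth. Outside neurons, mouse and human work places miR-132 in vessel growth and in the inflammatory response of leukocytes.

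The mature sequences are shown because both miRNAs carry the same seed, the stretch that pairs with target messages, and differ behind it. The array names carry no arm; in the older naming used there, a name without a suffix stands for the arm now called 3p in both cases. Sequences are from RefSeq on build GRCr8, 5′ to 3′, with the seed (bases 2 to 8) in capitals.
rno-miR-132-3p: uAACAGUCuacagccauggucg
rno-miR-212-3p: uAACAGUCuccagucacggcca
rno-miR-132-5p: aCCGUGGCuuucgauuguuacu
rno-miR-212-5p: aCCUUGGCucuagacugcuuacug
The seed AACAGUC was found in 2 of the 724 mature rat miRNAs in the RefSeq table, and these were the 3p arms of the pair. The 3p arms were identical at 17 of 22 positions. From miR-132-3p to miR-212-3p, counting from 1 at the 5′ end, the substitutions were A10C, C14U, U17C, U20C and G22A. The seeds of the 5p arms were each found in 1 entry. Because the 3p arms are this alike, a probe for one may take up some of the other, and this was not tested on these arrays.

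Both hairpins lie on the plus strand of chromosome 10. Mir212 spans chr10:60521740-60521850 and Mir132 spans chr10:60522033-60522133, with 182 bases between them. Neither hairpin overlaps another annotated gene: Hic1, a transcriptional repressor, ends 3927 bases before Mir212, and the long noncoding RNA LOC120095261 begins 8 bases after Mir132. The RefSeq window around the start of that noncoding RNA (chr10:60521892-60522191, plus strand) is shown because it covers most of the stretch between the hairpins and the whole Mir132 hairpin, at positions 142 to 242 of the window. The capitals mark a CRE, TGACGTCA, which is its own reverse complement.
LOC120095261 start window: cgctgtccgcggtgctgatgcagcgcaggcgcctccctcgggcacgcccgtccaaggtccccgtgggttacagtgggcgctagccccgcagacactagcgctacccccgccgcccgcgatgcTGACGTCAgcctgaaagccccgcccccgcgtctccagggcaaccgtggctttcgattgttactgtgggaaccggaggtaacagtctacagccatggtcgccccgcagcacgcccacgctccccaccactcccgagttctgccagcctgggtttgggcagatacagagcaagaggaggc
The motif lies at positions 123 to 130, 163 bases after the Mir212 hairpin and 11 bases before the Mir132 hairpin. Searched on both strands, TGACGTCA was found in 612 of 33469 start windows of the same length (1.83%), and its TGACG core, which every full motif contains, in 7097 (21.2%). The match is a description of these letters, and the arrays hold no measurement of binding there.

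On each array a member was read by 2 probes with 10 spots each. A level is the background-subtracted spot signal averaged over spots and probes and then expressed as a percentage of the array's scaling value, the 75th percentile of the miRNAs detected on all 15 arrays. Between 200 and 239 miRNAs were detected on 14 of the arrays. Day 14 replicate 3 had 172, and its negative controls averaged an intensity of -8.54 with an SD of 10.8, against SDs of 2.08 to 4.25 elsewhere; results that rest on it are given with and without it. Days 0, 1 and 4 were each on a slide of their own, and days 0 and 1 also on a scan day of their own, so these groups cannot be told apart from their slides.

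miR-132 was near the background of the array in uninjured nerve and several-fold above it in every injured group. Its level was 3.47%, 4.06% and 4.63% of the scaling value on day 1. It was 6.49%, 7.56% and 7.29% on day 4, 5.69%, 6.52% and 6.29% on day 7, and 4.95%, 5.55% and 5.01% on day 14, against 1.46%, 1.52% and 1.42% on day 0. Every injured array lay above every day 0 array, and the lowest injured value was that of day 1 replicate 1. The software detected miR-132 on all 12 injured arrays and on none of the 3 day 0 arrays.

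The spots behind these levels separated in the same way. On day 1, 42 of 60 miR-132 spots were well above background, on days 4 and 7 all 60 were, and on day 14 41 were, against 0 of 60 on day 0. The shortfall on day 14 lay in replicate 3, where 1 of 20 spots passed. The weaker criterion of a positive and significant signal was met by 47 of the 60 day 0 spots, so the uninjured value is a dim signal and only a bound can be drawn from it.

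**Figure D1:**
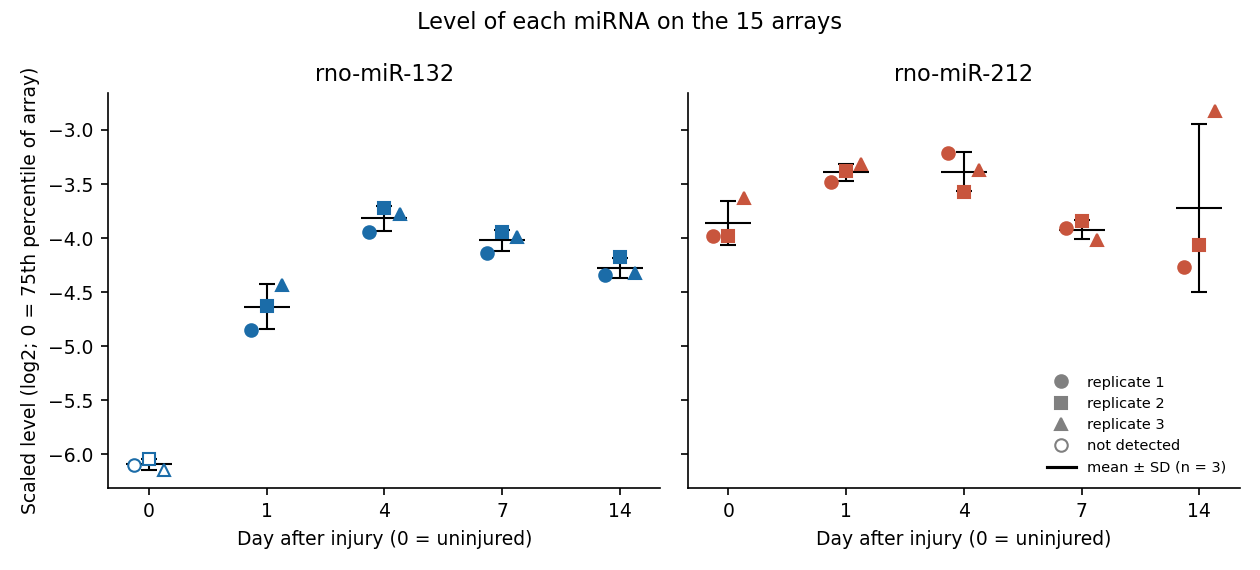
Scaled log2 level of rno-miR-132 (left) and rno-miR-212 (right) on each of the 15 arrays by day after injury, where 0 is the 75th percentile of an array; symbols give the replicate, open symbols an array without detection, and black bars the mean ± SD of 3 arrays. miR-132 is at -6.14 to -6.04 on day 0 and at -4.85 or above on all injured arrays, whereas miR-212 lies between -4.26 and -3.22 on all arrays but day 14 replicate 3, at -2.83.

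With both probes averaged and its undetected day 0 value as the bound, miR-132 was at least 2.74-fold higher on day 1, at least 4.84-fold on day 4, at least 4.20-fold on day 7 and at least 3.52-fold on day 14. These bounds are for the group means as processed here. They leave out the spread of the arrays, and other settings moved the day 1 change to between 0.36 and 4.34 on the log2 scale. On the log2 scale its mean was -4.64 ± 0.21 (SD, n = 3) on day 1, -3.82 ± 0.12 on day 4, -4.02 ± 0.10 on day 7 and -4.28 ± 0.09 on day 14, against -6.09 ± 0.05 on day 0. The changes were 1.46 ± 0.11 (SE; limma adjusted p = 5.21e-07), 2.28 ± 0.11 (adjusted p = 1.20e-09), 2.07 ± 0.11 (adjusted p = 4.06e-09) and 1.82 ± 0.11 (adjusted p = 2.16e-08). All 4 calls were kept under each of 30 other settings, among them 4 other scalings of the arrays and each array left out in turn. A call as such was common in this nerve: 60.6% of the 231 tested miRNAs were called on day 1, 65.8% on day 4, 62.8% on day 7 and 66.7% on day 14. Groups that do not overlap were common too, at 53.7%, 77.1%, 74.9% and 62.8% of the tested miRNAs on the 4 days.

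Taken at these bounds, the rise of miR-132 ranked 11th of 231 on day 1, 5th on days 4 and 7 and 4th on day 14, as a description with no test. The median change of all tested miRNAs was -0.26, -0.26, -0.32 and -0.37 on the 4 days, and the same measured changes of miR-132 stood 1.71, 2.53, 2.39 and 2.18 above it.

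**Figure D2:**
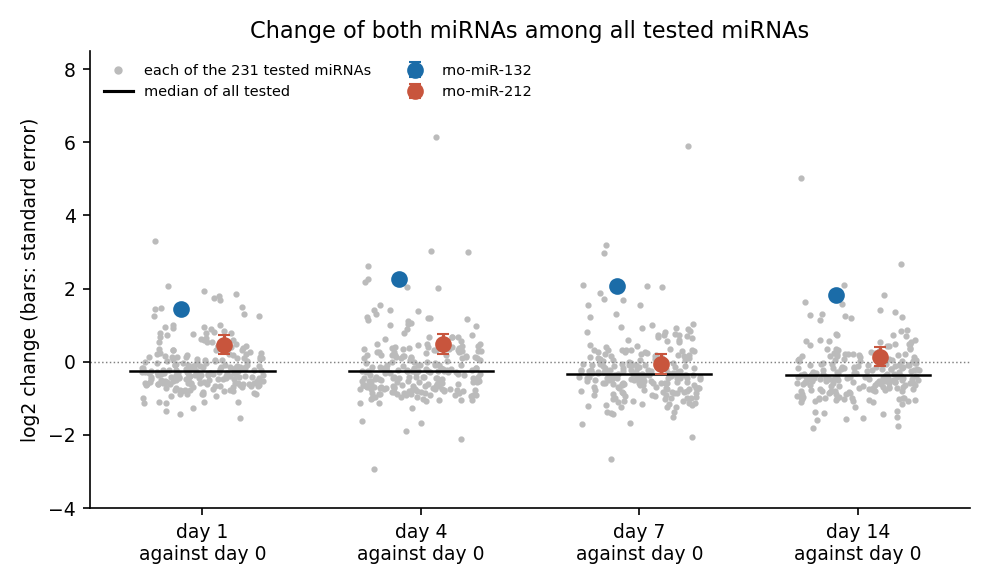
Log2 change from day 0 of rno-miR-132 (blue), rno-miR-212 (red, both with standard errors) and each of the 231 tested miRNAs (grey) on days 1, 4, 7 and 14; black lines are the medians of all tested. miR-132 is near the top of the tested miRNAs on each day, with 2.28 on day 4, and miR-212 lies between 0.48 and -0.06.

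After day 1 miR-132 rose further. The day 4 arrays lay above the day 1 arrays without overlap, by 0.82 ± 0.11 on the log2 scale (1.76-fold, adjusted p = 5.68e-05), in a comparison that called 51.5% of the tested miRNAs and left 60.6% without overlap. The 2 days were on different slides and scan days, so that slide and day cannot be told apart here. Later steps did not pass. Day 7 against day 4 gave -0.21 ± 0.11 (adjusted p = 0.332, unadjusted 95% interval -0.44 to 0.03), with 6.06% of miRNAs called. Day 14 against day 7 gave -0.25 ± 0.11 (adjusted p = 0.138, interval -0.49 to -0.02), with 13.9% called, although the 3 day 14 arrays lay below the 3 day 7 arrays, as 38.1% of tested miRNAs were without overlap in this step. From low to high, the groups thus ran day 0, day 1, day 14, day 7 and day 4; days 14 and 7, and days 7 and 4, were not separated by the test, and day 14 was not tested against day 1. Over all 5 groups the F statistic of miR-132 was 137 (adjusted p = 9.04e-09), the 3rd largest, in a test that called 86.1% of miRNAs.

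Both probes of miR-132 followed the same course. The first probe averaged an intensity of 28.3 ± 2.0 (SD, n = 3) on day 1, 49.6 ± 3.0 on day 4, 51.2 ± 4.4 on day 7 and 54.5 ± 8.8 on day 14, against 12.1 ± 0.3 on day 0. The second averaged 16.8 ± 2.6, 29.5 ± 1.8, 30.8 ± 2.1 and 29.4 ± 4.7 on the 4 days, against 6.06 ± 0.93 on day 0. Relative to the scaling value, the first changed by 1.37, 2.19, 1.98 and 1.78 on the log2 scale and the second by 1.62, 2.44, 2.25 and 1.90. These intensities are unscaled and dim, so that any signal left after background subtraction weighs on the fold: with another background correction (normexp with an offset of 50), which adds a constant to every spot, the changes shrank to 0.36, 0.58, 0.40 and 0.22, still past the test (adjusted p = 0.0240 or less). In the authors' deposited table, where the day 0 values of miR-132 lie at 0.08 to 0.33, near the bottom of its log2 scale, the changes were 4.34 to 5.32.

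**Figure D3:**
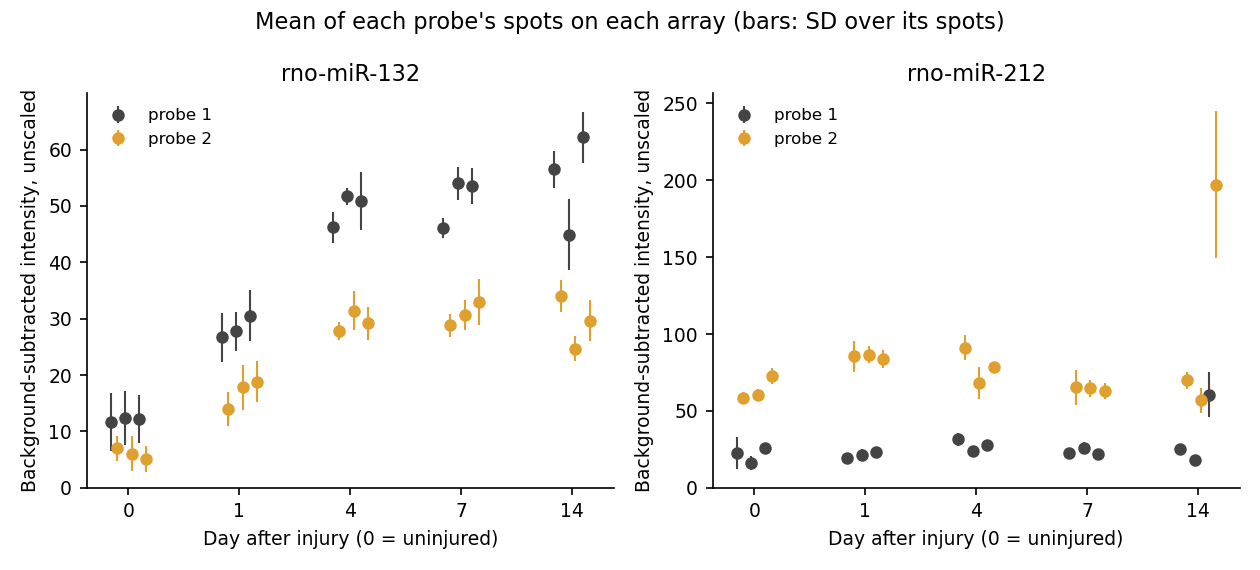
Unscaled background-subtracted intensity of the 2 probes of rno-miR-132 (left) and of rno-miR-212 (right) on each array by day after injury; points are means over up to 10 spots and bars the SD over those spots. Both miR-132 probes are higher on every injured array than on day 0, and both miR-212 probes are highest on day 14 replicate 3, at 60.6 and 197.

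miR-212 had a detectable level before and after injury and moved little beside its cluster partner. Its level was 8.98%, 9.61% and 10.03% of the scaling value on day 1 and 10.75%, 8.39% and 9.70% on day 4. It was 6.68%, 6.98% and 6.18% on day 7 and 5.20%, 5.98% and 14.1% on day 14, against 6.33%, 6.34% and 8.08% on day 0. With both probes averaged, the day 1 and day 4 arrays all lay above the day 0 arrays, where 53.7% and 77.1% of tested miRNAs did not overlap, the day 7 arrays overlapped them, and day 14 held both the lowest and the highest of the 15 values. On day 1 the first probe changed by 0.15 on the log2 scale and the second by 0.57, against 0.54 and 0.46 on day 4. The first probe alone overlapped on day 1, at 3.32%, 3.82% and 4.37%, against 3.50%, 2.69% and 4.27% on day 0. Detection was positive on all 15 arrays.

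None of the changes of miR-212 from day 0 passed when all arrays were fitted with the scaling used here. On the log2 scale its mean was -3.39 ± 0.08 (SD, n = 3) on day 1, -3.39 ± 0.18 on day 4, -3.92 ± 0.09 on day 7 and -3.72 ± 0.78 on day 14, against -3.86 ± 0.20 on day 0. The day 1 change was 0.47 ± 0.27 (SE; adjusted p = 0.149, 95% interval -0.11 to 1.06) and the day 4 change 0.48 ± 0.27 (adjusted p = 0.135, interval -0.11 to 1.06). On day 7 it was -0.06 ± 0.27 (adjusted p = 0.852, interval -0.64 to 0.53), and on day 14 0.14 ± 0.27 (adjusted p = 0.660, interval -0.44 to 0.73). With the 75th percentile taken over all miRNAs, the day 1 and day 4 changes were 0.65 (adjusted p = 0.0476) and 0.79 (adjusted p = 0.0185) and passed, and the day 7 change was 0.31 and did not. The F test over all groups did not pass either (F = 1.76, adjusted p = 0.204). From low to high the groups ran day 7, day 0, day 14, day 1 and day 4, and no step between consecutive times passed: 0.01 for day 4 against day 1 (adjusted p = 0.984), -0.53 for day 7 against day 4 (adjusted p = 0.300) and 0.20 for day 14 against day 7 (adjusted p = 0.656), each ± 0.27.

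The spread of miR-212 lay in a single array. On day 14 replicate 3 its spots had SDs of 14.5 and 47.6 for the 2 probes, and the SD of the 3 day 14 levels was 4.91% of the scaling value, against 0.40% to 1.18% in the other groups. Without that array the standard error was 0.11, and the day 1 and day 4 changes were 0.68 (adjusted p = 0.000356) and 0.63 (adjusted p = 0.000397). These passed in comparisons that called 53.8% and 63.7% of 234 tested miRNAs. The scale shifted as well, the median change of all tested miRNAs on day 1 being -0.04 without the array; above that median miR-212 stood 0.72 without the array and 0.73 with it. The step from day 4 to day 7 was -0.52 and passed (adjusted p = 0.0151, with 7.69% of miRNAs called), and the F test passed too (F = 22.1, adjusted p = 7.78e-05, with 83.8% called). Days 7 and 14 did not pass, at 0.10 (adjusted p = 0.446) and -0.21 (adjusted p = 0.174). miR-132 kept its calls without that array, with changes of 1.67, 2.42, 2.23 and 1.93 on days 1, 4, 7 and 14.

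The slides bear on some of these steps. Days 4, 7 and 14 shared a scan day apart from day 14 replicate 3, and within its 8 arrays miR-212 was lower on day 7 than on day 4 by 0.53 on the log2 scale (adjusted p = 0.0125), although these days were on different slides there too. Within the slide that holds both late groups, day 14 against day 7 was -0.24 for miR-212 (adjusted p = 0.242), with the opposite sign to the value over all arrays. For miR-132 the same within-slide step was -0.23 (adjusted p = 0.256).

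The pair was also compared within each array, where scaling cancels. Since probes differ in binding, only the change of this difference over time can be read, not which miRNA is more abundant. The log2 difference of miR-132 minus miR-212 was -1.37, -1.24 and -1.12 on day 1. It was -0.73, -0.15 and -0.41 on day 4, -0.23, -0.10 and 0.02 on day 7, and -0.07, -0.11 and -1.49 on day 14, against -2.11, -2.06 and -2.51 on day 0. All 12 injured arrays lay above all 3 day 0 arrays. How often other pairs of miRNAs separate in this way was not tested. Of the single tested miRNAs, 53.7% on day 1 to 77.1% on day 4 did not overlap with day 0. The means were -1.24 ± 0.13 (SD, n = 3) on day 1, -0.43 ± 0.29 on day 4, -0.10 ± 0.13 on day 7 and -0.56 ± 0.81 on day 14, against -2.23 ± 0.25 on day 0.

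Over all injured arrays the difference was 1.64 higher than on day 0, a 3.13-fold gain of miR-132 on miR-212 as measured, with miR-132 undetected on day 0 (exact two-sided permutation test of 12 against 3 arrays, p = 0.00440, 1 of 5 such tests). By day the gains were 0.98, 1.80, 2.13 and 1.67 on days 1, 4, 7 and 14, each with an exact p of 0.10, the smallest that 3 against 3 arrays allow. Without day 14 replicate 3 the gain over all injured arrays was 1.73 (exact p = 0.00549) and that of day 14 was 2.14 (exact p = 0.20). The Benjamini-Hochberg value of the pooled test over the 5 tests was 0.0220, and those of the single days were 0.10. The 3 day 0 arrays were on a slide and scan day of their own, so injury and slide cannot be told apart in these tests.

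**Figure D4:**
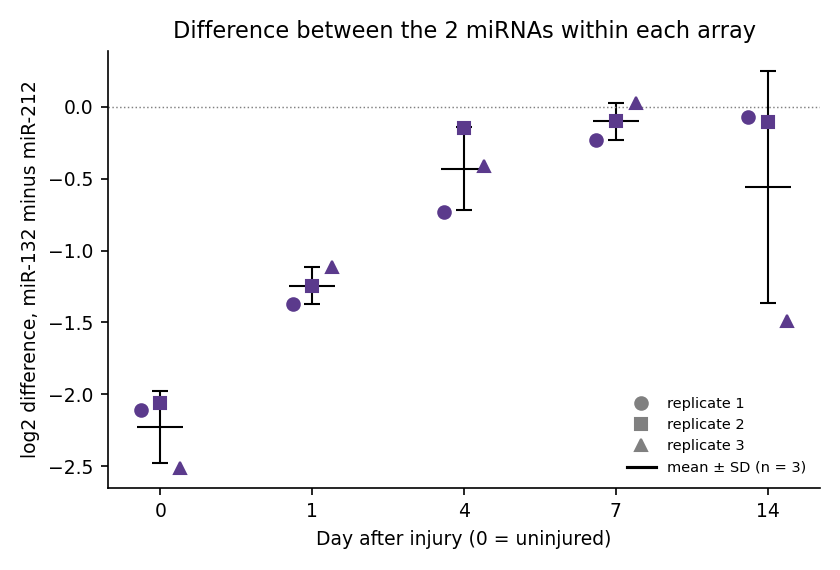
Log2 difference of miR-132 minus miR-212 within each array by day after injury; symbols give the replicate and black bars the mean ± SD of 3 arrays. The day 0 arrays lie at -2.06 or below, the day 7 arrays between -0.23 and 0.02, and day 14 replicate 3 at -1.49 stands apart from the other day 14 arrays at -0.07 and -0.11.

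As a description of likeness, the log2 levels of each miRNA were correlated with those of the other tested miRNAs over the 15 arrays, which share their scaling, floor and large group differences. miR-132 was most like miR-31 (r = 0.99), miR-130b (r = 0.97), miR-21 (r = 0.96), miR-222 (r = 0.95) and miR-221 (r = 0.95). miR-21 is induced by inflammatory and growth signals, and miR-221 and miR-222 repress the cell cycle inhibitor p27 in human cells. miR-31 and miR-130b resembled miR-132 in having no detection on any day 0 array. As scaled here, 4 of the 5 had their highest mean on day 4, like miR-132, the exception being miR-21 on day 7. Day 7 was not separated from day 4 for miR-132 or any of the 5 (limma adjusted p = 0.116 or more). Without day 14 replicate 3, miR-18a (r = 0.96) took the place of miR-221 among the 5.

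Its cluster partner was far down this order: the correlation of miR-132 with miR-212 was 0.21, the 54th highest for miR-132 and the 46th for miR-212. It was 0.19 without day 14 replicate 3. The likeness list of miR-212 rested on that array. With it, the highest values were those of miR-139-3p (r = 0.72), miR-674-5p (r = 0.67), miR-347 (r = 0.55), the myeloid miR-223 (r = 0.53) and miR-425 (r = 0.53). Without it, they were those of the neuronal miR-137 (r = 0.92), miR-323 of the imprinted Dlk1-Dio3 region (r = 0.91), miR-425 (r = 0.87), miR-182 of sensory cells (r = 0.87) and miR-551b (r = 0.85).

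**Figure D5:**
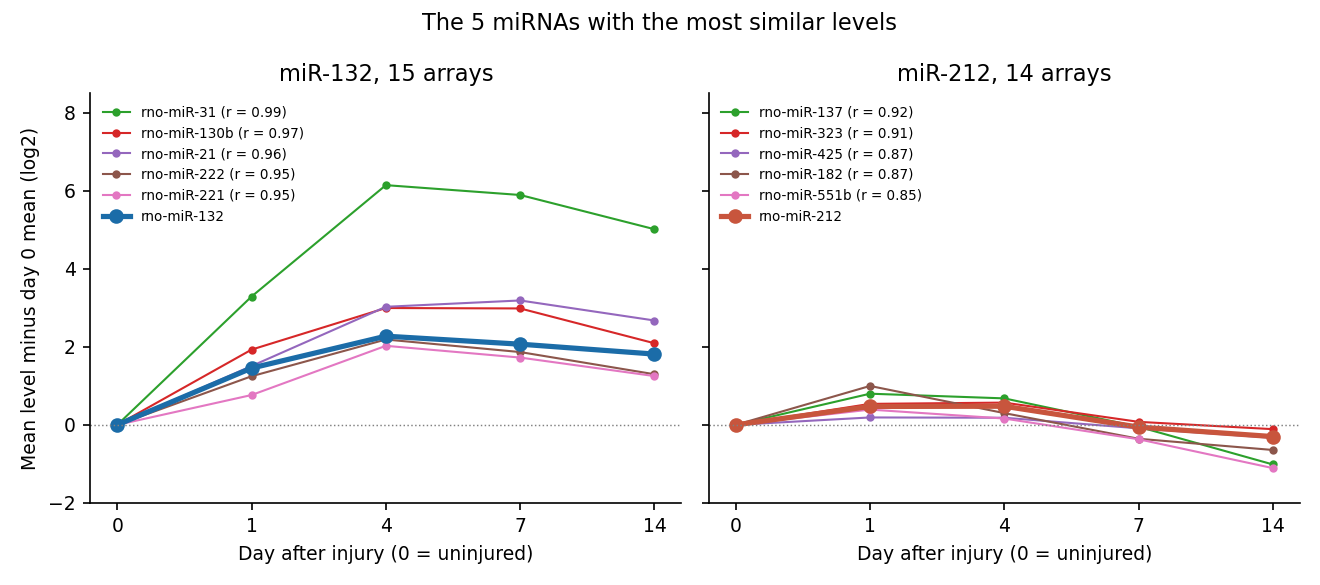
Mean log2 level minus the day 0 mean, by day after injury, for rno-miR-132 and the 5 miRNAs most correlated with it over 15 arrays (left), and for rno-miR-212 and its 5 over the 14 arrays without day 14 replicate 3 (right); r is the correlation over arrays. The miR-132 set is above its day 0 mean on all injured days, whereas miR-137, on the right, runs to 0.80 on day 1 and -1.02 on day 14.

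Over all tested miRNAs, 16.9% rose and 43.7% fell on day 1, 20.3% and 45.5% on day 4, 17.3% and 45.5% on day 7, and 16.0% and 50.6% on day 14, and the counts of the lists that follow are to be read against these shares. The excess of falls depends on the scaling and on day 14 replicate 3. With the 75th percentile over all miRNAs, 57 of 231 rose and 85 fell on day 1, and 74 and 74 on day 4. On day 7, 82 rose and 63 fell under that percentile, and on day 14, 70 and 54. Without that array, 58 of 234 rose and 68 fell on day 1, and 63 and 86 on day 4. The counts without it were 56 and 87 on day 7, and 45 and 92 on day 14. Of 8 other miRNAs linked to neuronal activity or plasticity, 5 were tested, and miR-219-5p, miR-381 and miR-184 were not. On day 1, 2 rose and 1 fell, and on days 4, 7 and 14 none rose and 2 fell. The list's median changes were 0.31, 0.20, -0.10 and -0.32, against -0.26, -0.26, -0.32 and -0.37 for all tested miRNAs. Under other scalings of the arrays the day 1 count was the same, and on day 4 miR-124 was also called as a rise in 3 of them.

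The activity-linked rises called in the fit given here were early ones. miR-188, tied to synaptic plasticity in rat hippocampus, stood at -3.76, -3.67 and -3.19 on the log2 scale on day 1, against -6.04, -6.45 and -4.39 on day 0. That is a rise of 2.08 ± 0.44 (adjusted p = 0.00123), and on day 4 the change was 0.67 ± 0.44 (adjusted p = 0.197). miR-124, the brain-enriched miRNA that targets CREB in Aplysia, stood at -2.71, -2.40 and -2.67 on day 1, against -3.81, -3.49 and -3.25 on day 0. Its rise was 0.92 ± 0.16 (adjusted p = 0.000269), followed by a day 4 change of 0.32 ± 0.16 (adjusted p = 0.0909). Without day 14 replicate 3 the day 4 change of miR-124 was 0.46 (adjusted p = 0.0237) and passed.

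The remaining activity-linked miRNAs did not rise. miR-138, which restrains dendritic spine size in rat neurons and is also present in Schwann cells, fell by 0.97 on day 4 (adjusted p = 0.000215) and by 1.75 on day 14 (adjusted p = 2.37e-06). miR-329 fell by 0.43 on day 1 (adjusted p = 0.00345) and by 0.58 on day 14 (adjusted p = 0.000399). These falls were looked up in 6 fits, namely that given here, those with 4 other scalings and that without day 14 replicate 3. Those of miR-138 were called in all 6 and those of miR-329 in 5. On day 1 the exception was the fit without day 14 replicate 3, where miR-329 stood at -0.22 (adjusted p = 0.0634), while on day 14 that fit gave -0.46 (adjusted p = 0.00257). On day 14 the exception for miR-329 was the fit without scaling. miR-134, which represses Limk1 in rat neurons, did not pass on any day, with changes of 0.31, 0.20, 0.06 and -0.27.

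Some markers of other cells moved with the rise of miR-132, and their part in it was not tested. Of 8 leukocyte and inflammation miRNAs, all tested, 5 rose on each injured day and 1 or 2 fell in the fit given here. With the percentile over all miRNAs, 6 rose on days 4 and 7, and 7 rose on day 14. Without scaling, 6 rose and none fell on day 14. Without day 14 replicate 3, 6 rose on days 4 and 7 and 5 on day 14. In the fit given here, the 5 were not the same throughout. The myeloid miR-223 was highest on day 1, with changes of 1.79, 1.14, 0.80 and 0.21 on the 4 days. The last was uncalled here (adjusted p = 0.281), though 2 of the 6 fits called it. On day 14, as scaled here, miR-342-3p took the place of miR-223, at 0.36 (adjusted p = 0.0113). Their summed level was 1498% to 1800% of the scaling value on day 1, 3327% to 4076% on day 4, 4087% to 4394% on day 7 and 2839% to 3487% on day 14, against 657% to 777% on day 0. miR-21 made up 66.8% to 86.3% of that sum on the injured arrays, against 53.0% to 54.5% on day 0. The other 7 together were at 488% to 597% on day 1, 537% to 586% on day 4, 594% to 632% on day 7 and 521% to 623% on day 14, against 304% to 365% on day 0. The falls in the fit given here were those of miR-146a on days 1, 4 and 7 and of miR-150 on days 4, 7 and 14. miR-21, itself among the 5 most like miR-132, rose by 1.51 ± 0.12, 3.03 ± 0.12, 3.19 ± 0.12 and 2.68 ± 0.12 on the 4 days. The blood-cell miRNA miR-142-3p rose by 0.82 ± 0.13, 1.16 ± 0.13, 1.54 ± 0.13 and 1.28 ± 0.13, and miR-146b by 0.55 ± 0.13, 1.42 ± 0.13, 1.68 ± 0.13 and 1.64 ± 0.13.

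Neuronal miRNAs gave mixed counts. Of 7 tested of 8 listed, 3 rose and 3 fell on day 1, and none rose and 5 fell on day 14. Without day 14 replicate 3 the counts were 3 rises and no fall on day 1, and 1 rise and 5 falls on day 14. That day 14 rise was miR-7a, at 0.26 (adjusted p = 0.0263), against 0.12 (adjusted p = 0.281) with the array. With the percentile over all miRNAs, day 14 had 1 rise and 4 falls. The neuronal sum was 154% to 204% of the scaling value on day 1 and 97.7% to 117% on day 14, against 175% to 236% on day 0. miR-7a rose by 0.64 ± 0.10 on day 1 and 1.21 ± 0.10 on day 4. miR-137 rose by 0.80 ± 0.16 on day 1 (adjusted p = 0.000909) and by 0.68 ± 0.16 on day 4 (adjusted p = 0.00228) and fell by 0.98 ± 0.16 on day 14. The changes of miR-9* were -0.51, -1.13, -1.22 and -0.98 on the 4 days, all called as falls, and without day 14 replicate 3 the day 1 change was -0.30 (adjusted p = 0.0724), no longer a call. Myelinating glia, with 4 tested of 5, had no rise on any day. Falls numbered 3 on day 1 and 4 on day 14 (1 or 2 on day 14 under the other 4 scalings). The summed level of this list was 1109% to 1472% on day 1 against 1689% to 2589% on day 0. Most of that sum was miR-338, at 3.83 to 4.48 on the log2 scale on day 0, against 1.05 to 1.46 for miR-204, the next highest.

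Of the other lists, the 2 endothelial miRNAs, miR-126 and miR-126*, had no rise and 2 falls on day 1, and 1 fall on day 4, which was not called under 3 of 4 other scalings. Smooth muscle and fibroblast miRNAs, 5 tested of 5, had 1 rise and 3 falls on day 1 and 2 rises and 3 falls on day 4 (3 rises and 1 fall with quantile normalisation). Skeletal muscle, 5 tested of 5, had no rise and 1 fall on day 1 and 2 falls on day 4. The day 1 fall was not called with the percentile over all miRNAs, in the deposited table or without day 14 replicate 3. The summed muscle level ran from 73.8% to 1629% of the scaling value over the day 0 arrays. The erythrocyte pair had 1 rise on day 1 and no call on day 4.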

How the data were processed

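Total RNA was labelled with cyanine 3, per the labels' protocols, and hybridised to 15 single-colour rat miRNA arrays. The deposited spot intensity files are background-subtracted but unscaled between arrays; their headers name Agilent Feature Extraction version 10.7.3.1. The authors' deposited table, log2 judging by its values, was an alternative; how it was normalized is not given in the sources used here. Spots marked as outliers were left out, spots and then probes averaged, each array divided by its 75th percentile over the 164 universally detected miRNAs, values floored at 0.362% of it and log2-transformed. The 231 miRNAs detected throughout at least 1 group were tested two-sided in a single limma model of the 5 group means (version 3.58.1, R version 4.3.3), with Benjamini-Hochberg adjustment over all of them and a threshold of 0.05; the step was tested on simulated data. "At least" folds compare with the undetected day 0 value. Named miRNAs are both members, the 5 most correlated with each, the tested activity-linked ones and up to 3 per cell list by smallest F test p. Members and lists were chosen with earlier results of these data known. Python 3.11.15, pandas 2.3.3 and scipy 1.17.1 were used. The number of arrays limits the precision.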

Additional observations from a re-analysis of the deposited data

Results flagged for a closer look

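The change of miR-132 from day 0 was larger on day 4 than on day 1. The difference itself, tested as day 4 against day 1, was 0.82 ± 0.11 on the log2 scale (limma adjusted p = 5.68e-05), and all 3 day 4 arrays lay above all 3 day 1 arrays. Both were common in this comparison, which called 51.5% of the 231 tested miRNAs and left 60.6% without overlap. Day 1 and day 4 were on different slides and scan days, and the part of these in the difference cannot be told apart from the day. Groups of 3 arrays are too small for a test of outlying arrays.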

How the results depend on the processing

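The 4 changes of miR-132 from day 0 and its rise to day 4 over day 1 kept direction and call under all 30 other settings, with ranges of 0.36 to 4.34, 0.58 to 5.32, 0.40 to 5.24, 0.22 to 5.06 and 0.22 to 1.02. The 2 later steps of miR-132 had the opposite sign without scaling, 0.051 and 0.025, both uncalled. miR-212 was called on day 1 (0.65) and day 4 (0.79) where the scaling percentile covered all miRNAs, and on day 7 against day 4 within the scan day (-0.53, adjusted p = 0.0125). Its day 7 change turned positive with that percentile (0.31), quantile normalisation (0.063), no scaling (0.047), the total gene signal (0.058), the dimmer probe (0.16) and the deposited table (0.20). Its day 14 change turned to -0.087 with normexp. Day 4 against day 1 turned to -0.15 with quantile normalisation, -0.0032 without scaling, -0.025 with normexp, -0.061 with the brighter probe and -0.18 in the deposited table, and day 14 against day 7 to -0.24 within the slide and within the scan day.

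With each array left out in turn, miR-212 ran from 0.37 to 0.68 on day 1, 0.36 to 0.63 on day 4, -0.17 to 0.10 on day 7 and -0.21 to 0.42 on day 14, with -0.079 to 0.10, -0.63 to -0.45 and -0.31 to 0.47 for the consecutive steps and F from 1.33 to 22.1; only leaving out day 14 replicate 3 changed a call. The gain of miR-132 on miR-212 on day 14 ran from 1.43 to 2.14. Over all injured arrays it ran from 0.33 to 4.43 under 27 settings, with unadjusted exact p = 0.0440 or less; without a day 0 array this p was 0.0220. By day it moved to 2.21, 3.23, 3.56 and 2.91 with the total gene signal, 0.12, 0.37, 0.51 and 0.31 with normexp, 3.50, 4.66, 5.05 and 4.52 in the deposited table, and to 1.46 on day 1 with the dimmer probe.

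The number of miRNAs called was 93 on day 1 with the dimmer probe, against 140, and 79 for day 4 against day 1 with normexp, against 119. For day 7 against day 4 it was 14, and 22 with the percentile over all miRNAs, 33 with quantile normalisation, 31 without scaling, 5 among miRNAs detected on all arrays, 4 and 7 with the brighter and dimmer probe, 22 in the deposited table, 23 within the scan day and 5 to 18 with an array left out. For day 14 against day 7 it was 32, and 62, 82, 18, 19, 21 and 14 with that percentile, no scaling, detection on all arrays, the brighter probe, the deposited table and the slide alone, and 11 to 45 with an array left out.

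Replicate numbers were not treated as pairs: 8 of 30 same-numbered pairs correlated above 0.1, with values from -0.78 to 0.59. Arrays with different numbers were not compared, so this cannot exclude pairing. The replicate block changed no call of either miRNA, with miR-132 at 1.46 (adjusted p = 6.86e-07) on day 1. The dimmer probe, the scan day and the use of median spot signals in normexp, planned with mean signals, were chosen after the data were seen. miR-132 could not be fitted among miRNAs detected on all arrays. The signal of miR-132 on day 0 is not well above background, which limits its fold to a bound; the cause of the other changes was not tested.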
